A study of Homo sapiens with 4 samples.

Results

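The control transcriptome of MDA-LM2, a human breast cancer line, was described from the 2 siControl arrays of a series of 4 Illumina expression BeadChips. MDA-LM2 was derived from MDA-MB-231 by selection in mice for growth in the lung. Per the labels' protocols, the control cells were not left untreated: they were transfected with a control siRNA by lipofection, and total RNA was taken 48 h later, labelled with biotin and hybridised. The members are the 2 arrays whose titles name siControl. The other 2 arrays of the series carried RNA after siRNA against the transcription factor SOX4 and are not described here. The labels call the arrays replicate 1 and replicate 2 but do not say whether they came from separate cultures, so the spread between them may be technical. All values below are of 1 line in culture, in 1 condition, with n = 2 arrays, and no test between groups was made.

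Breast epithelium holds luminal cells, which carry hormone receptors and the simple keratins, and basal cells, which carry other keratins, integrins and contractile proteins. Cells that pass through an epithelial-mesenchymal transition lose E-cadherin junctions and gain vimentin, under factors such as ZEB1, SNAI2 and TWIST1. MDA-MB-231 and its derivatives have long been used as a model of breast cancer without hormone receptors, with a mesenchymal form and with secreted factors that act on lung, bone and brain. Detection was therefore described first for lineage markers, then for receptors, secreted factors and the genes of highest signal.

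A probe was called detected where its deposited detection p-value, which compares its signal with the negative-control probes of the same array, was under 0.05. Of 47323 probes, 18609 passed on the array of siControl sample 1 and 19346 on that of sample 2, and 17139 (36.2%) passed on both. The median signal over all probes was 82.4 and 78.6, the highest was 34322 and 34571, and the negative controls implied by the detection p-values averaged 70.1 and 66.8 with an SD of 12.5 and 11.6. The array annotation gave 1 symbol to 30113 probes, and 17202 probes were not listed in it. Through these symbols 20046 genes were measured, of which 10261 (51.2%) had at least 1 probe detected on both arrays, 1341 had one on 1 array only, and 8444 (42.1%) had none on either. A gene detected on neither array had no probe that passed this threshold on either, which does not show that its RNA was absent. Its signal may still lie above the average of the negative controls. In RNA from a whole culture, fewer cells that carry a transcript and less of it per cell cannot be told apart. The detected share of each list of genes below is to be read beside the 51.2% of all genes. Among protein-coding genes alone that share was 55.1%.

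Detection differed by class of gene. Of the protein-coding genes 9796 of 17777 (55.1%) were detected on both arrays, against 170 of 528 transcribed pseudogenes (32.2%), 86 of 279 small nucleolar RNA genes (30.8%), 152 of 798 long non-coding RNA genes (19.0%) and 17 of 561 miRNA genes (3.03%). The miRNA share is of precursor transcripts read by an mRNA array and says nothing of mature miRNAs. At the stricter detection p-value of 0.01, 9288 genes (46.3%) were detected on both arrays. When every listed probe of a gene had to be detected, a rule chosen after the data were seen, 7821 genes (39%) were detected.

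Each gene was given its brightest detected probe, and genes were ordered by the mean over both arrays of the background-corrected, quantile-normalized log2 signal. Signals printed in pairs are the deposited intensities of siControl samples 1 and 2, in that order, on a linear scale without background subtraction. The order of genes is one of probe signals, which depend on the probe as well as on the transcript, so it does not rank RNA amounts. The mean log2 signal ran over detected genes from 5.20 to 15.04, with a median of 7.81 (a deposited signal of about 278). The brightest 10% of detected genes lay above a deposited signal of 1792, and the 100 brightest genes held 19.6% of the summed signal. AGMAT, at 96.99 and 85.4, ANKRD20A3P, at 97.2 and 85.3, and BTRC, at 91.00 and 93.1, were just inside the detection threshold. ATP6V1B1, at 90.8 and 95.4, CATSPER2, at 90.8 and 90.7, and CELF5, at 98.8 and 85.2, were just outside it.

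The 2 control arrays were alike for most genes. Over the 10261 genes the log2 difference of sample 1 minus sample 2 had an SD of 0.23, and its median size was 0.14, or 1.10-fold. The SD was 0.16 in the 10% of genes of highest signal and 0.24 in the 10% of lowest signal. Pearson's r between the arrays was 0.993 across genes, which share labelling and array design and are not independent replicates. A difference of more than 1.5-fold was seen for 189 genes (1.84%), and one of more than 2-fold for 5. The 2-fold count depends on the background correction, which widens differences of dim probes: without it, and in the authors' deposited matrix, it was 1.

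Those 5 genes were MMP1, IL1B, CACNA2D4, MMP3 and PTGS2. MMP1, an interstitial collagenase, had signals of 433 and 1022 on the arrays of samples 1 and 2. PTGS2, the inducible cyclooxygenase, had 381 and 709. IL1B, an inflammatory cytokine, had 132 and 233. All of these, and MMP3 (stromelysin, 101 and 145), were higher on the array of sample 2, while CACNA2D4, a calcium channel subunit, was higher on that of sample 1 (133 and 87.3). MMP1 differed most, 2.58-fold after normalization. The next were SEPTIN5 (171 and 282), a septin, VIPR1 (645 and 1208), a receptor for vasoactive intestinal peptide, TBC1D3F (94.1 and 130.0), DOT1L (128 and 86.6), a histone methyltransferase, and GPRC5C (289 and 507), an orphan receptor. VIPR1 and GPRC5C were higher on the array of sample 2, as were SEPTIN5 and TBC1D3F, and DOT1L was higher on that of sample 1. These 10 genes had the largest differences between the control arrays on the background-corrected, normalized scale; the deposited signals printed here still hold the background, and 4 of the first 5 genes differ by less than 2-fold on them.

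**Figure D1:**
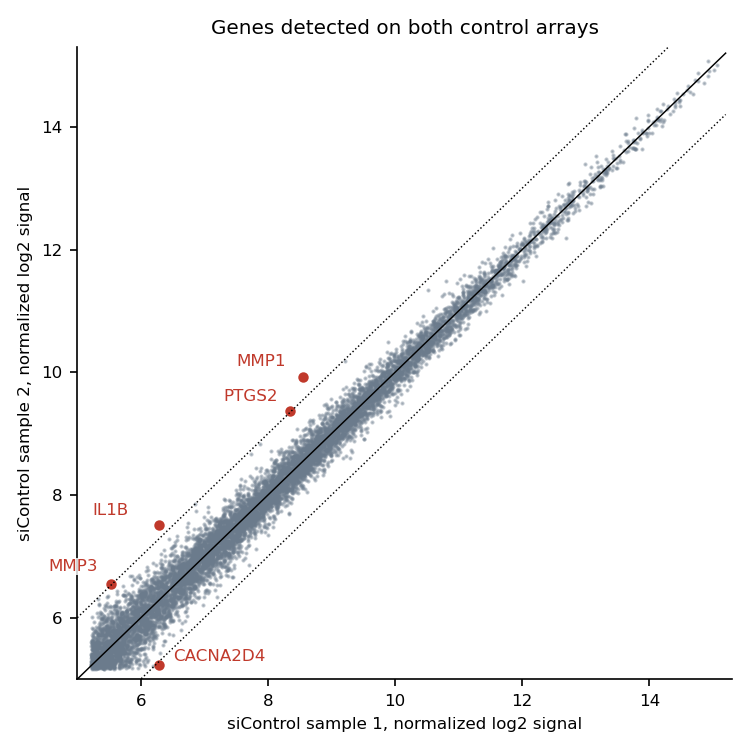
Normalized log2 signal of the 10261 genes detected on both control arrays, siControl sample 1 on the horizontal axis and siControl sample 2 on the vertical axis. The solid line marks equal signal and the dotted lines a 2-fold difference; the 5 named genes lie beyond them, and without background correction 1 gene does.

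Promoter sequence was set beside detection, because genes used in many cell types tend to start in CG-rich DNA and genes of single tissues often do not. RefSeq promoters (build GRCh38.p14) were read for the 250 bases before each annotated gene start, the most upstream start, which need not be the one used in these cells. For the 8261 protein-coding genes detected on both arrays and found in the table, the median window held 21 CG dinucleotides (quartiles 14 and 28), and 7.42% of windows held fewer than 5. For the 5257 detected on neither array, the median was 8 (quartiles 3 and 21), and 36.6% held fewer than 5. The 922 genes detected on 1 array had a median of 13. The distributions overlapped widely, as the plot of promoter CG content shows.

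**Figure D2:**
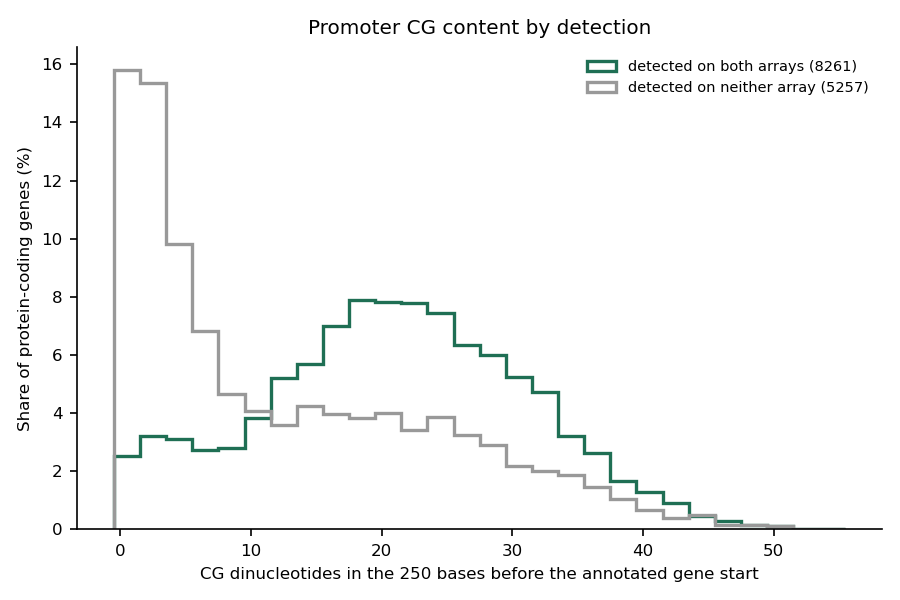
Share of protein-coding genes (%) by the number of CG dinucleotides in the 250 bases before the annotated gene start, for the 8261 genes detected on both control arrays and the 5257 detected on neither. The genes detected on both peak near their median of 21, and those detected on neither are most frequent in the lowest bins, with a median of 8.

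Each window was also searched on both strands for 4 short motifs, none of which contains another. The TATA box was searched as TATAAA, and 9.23% of all 15843 promoters of protein-coding genes in the table held it. The GC box was searched as GGGCGG, which itself includes a CG dinucleotide, and 56.0% held it. The CCAAT box was present in 34.5% of all promoters, and TGAGTCA, the AP-1 site, in 3.17%. TATAAA holds no G or C, and the median GC content of the windows was 64.8% for genes detected on both arrays and 58.4% for those on neither. TATAAA was present in 5.60% of the genes detected on both arrays and in 14.04% of those detected on neither. Among detected genes it was present in 13.1% of the 84 promoters found for the 100 brightest genes and in 9.20% of the 326 found for ranks 101 to 500. GGGCGG was present in 67.0% of genes detected on both arrays and in 42.8% of those on neither, TGAGTCA in 2.49% and 4.03%, and CCAAT in 36.3% and 32.7%. A match is a description of the letters and no evidence of a bound factor, and no match says only that the letters are not in the window.

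The promoters of 6 genes are shown to set bright genes beside lineage genes that were not detected, with CG and TATAAA in capitals. FTL, the ferritin light chain, ranked 2 with 31076 and 34571, and its window (chr19:48965059-48965308, plus strand) held 18 CG and no TATAAA. S100A4, a calcium-binding protein of motile cells, ranked 43 with 17449 and 16965, and its window (chr1:153545807-153546056, minus strand) held 7 CG and TATAAA 31 bases before the start. ANXA1, a membrane-binding annexin, ranked 51 with 16523 and 15177, and its window (chr9:73151615-73151864, plus strand) held no CG and TATAAA at the same distance. CLDN3, a claudin of epithelial tight junctions, was detected on neither array, at 57.6 and 52.7, although its window (chr7:73770271-73770520, minus strand) held 19 CG. KRT5, the basal keratin, was detected on neither, at 60.9 and 56.9, and its window (chr12:52520395-52520644, minus strand) held 6 CG. MYH2, a myosin of skeletal muscle, was detected on neither, at 73.4 and 70.98, and its window (chr17:10549659-10549908, minus strand) held 2 CG and TATAAA 31 bases before the start. These 6 genes were picked as examples. Among them high signal was found with either kind of promoter, and so was no detection. Over all protein-coding genes in the table CG content did differ with detection, as given above.
FTL: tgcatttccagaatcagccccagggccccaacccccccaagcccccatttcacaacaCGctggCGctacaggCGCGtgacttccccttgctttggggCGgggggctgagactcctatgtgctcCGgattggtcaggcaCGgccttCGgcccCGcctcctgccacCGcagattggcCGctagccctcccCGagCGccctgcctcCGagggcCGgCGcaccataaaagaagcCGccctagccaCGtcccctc
S100A4: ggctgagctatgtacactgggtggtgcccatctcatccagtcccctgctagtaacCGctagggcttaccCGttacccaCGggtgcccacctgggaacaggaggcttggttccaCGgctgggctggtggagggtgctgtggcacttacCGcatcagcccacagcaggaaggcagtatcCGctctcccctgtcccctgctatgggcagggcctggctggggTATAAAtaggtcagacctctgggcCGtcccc
ANXA1: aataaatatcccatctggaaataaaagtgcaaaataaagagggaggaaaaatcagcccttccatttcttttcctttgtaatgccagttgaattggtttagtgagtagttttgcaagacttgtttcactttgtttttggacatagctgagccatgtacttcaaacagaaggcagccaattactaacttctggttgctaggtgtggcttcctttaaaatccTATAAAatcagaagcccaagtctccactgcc
CLDN3: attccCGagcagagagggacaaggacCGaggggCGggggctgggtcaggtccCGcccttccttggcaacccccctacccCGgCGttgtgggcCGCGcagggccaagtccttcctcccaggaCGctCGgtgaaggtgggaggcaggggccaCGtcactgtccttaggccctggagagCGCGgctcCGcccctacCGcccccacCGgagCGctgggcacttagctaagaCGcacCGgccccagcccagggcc
KRT5: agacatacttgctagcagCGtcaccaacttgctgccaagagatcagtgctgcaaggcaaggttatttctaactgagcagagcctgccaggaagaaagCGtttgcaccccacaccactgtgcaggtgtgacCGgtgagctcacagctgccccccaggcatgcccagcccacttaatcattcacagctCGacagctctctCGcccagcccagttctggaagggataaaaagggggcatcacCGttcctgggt
MYH2: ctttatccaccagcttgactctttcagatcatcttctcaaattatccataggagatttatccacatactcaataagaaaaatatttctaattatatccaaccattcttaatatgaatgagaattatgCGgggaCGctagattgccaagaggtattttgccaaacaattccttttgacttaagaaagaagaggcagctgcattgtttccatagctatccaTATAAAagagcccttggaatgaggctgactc

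Of the measured mesenchymal markers and EMT factors 18 of 27 were detected on both arrays (66.7%, against 51.2% of all genes). The median log2 signal was 9.61 among those detected, against 7.81 for all detected genes, and 6 were in the brightest 10%. With every listed probe required, 12 of the 27 were detected, against 39% of all genes under that rule. VIM, the intermediate filament of mesenchymal cells, ranked 4 of all genes with 31150.5 and 30781. AXL, a receptor tyrosine kinase tied to the mesenchymal state in carcinoma, had 4489 and 4112. Both of its probes were bright, the other at 4109 and 4069. LGALS1, a galectin that binds cell-surface sugars, had 7758 and 7371, and MSN, which joins membrane to actin, had 5243 and 5088. TGFBI, a matrix protein induced by TGF-beta, had 4189 and 2917. These were high on both arrays.

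The transcription factors of this programme lay lower in the order of signals. SNAI2, a repressor of E-cadherin, had 890.0 and 941. ZEB1, another such repressor, had 132 and 134, above the negative controls on both arrays but under the median. Of the remaining factors, TWIST1 was detected on 1 array only (96.4 and 75.1), and SNAI1 and TWIST2 were detected on neither. CDH2, the cadherin of mesenchymal and neural cells, was also detected on neither, at 73.7 and 74.9. FN1, the gene of fibronectin, passed through 1 of its 3 probes at 99.1 and 88.1, while the others read 50.03 and 51.8, and 67.02 and 67.98. Thus the markers that define this state were not uniformly present: vimentin, AXL and SNAI2 were clearly detected, while N-cadherin was not and fibronectin was at the edge.

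The basal and myoepithelial list holds 23 genes, of which 16 were measured. Of these 11 were detected (68.8%, against 51.2% of all genes), with a median of 9.09. With every listed probe required, 6 of the 16 were detected, against 39% of all genes under that rule. CAV1, the coat protein of caveolae, led with 10099 and 8393, and its second probe read 1438 and 1234. LAMB3, a laminin chain of the epithelial basement membrane, had 2155 and 1844. The integrin of hemidesmosomes, which binds such laminins, was represented by ITGB4 at 1285 and 1025 and ITGA6 at 678 and 523. EGFR, the epidermal growth factor receptor, had 699 and 572 on its brightest probe, and its other probes read far lower. On their brightest probes these surface and matrix genes were all above the median of detected genes. KRT14 (60.9 and 60.7), KRT5 and CDH3 (68.5 and 58.7), the classical basal keratins and P-cadherin, were detected on neither array. Only surface, matrix and caveolar members of this list were bright, and of its measured keratins KRT15 alone was detected, at 135 and 105. Members that were not measured cannot be judged.

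Of the luminal lineage and hormone receptor markers 8 of 18 were detected (44.4%, against 51.2% of all genes). The hormone receptor genes ESR1 (71.5 and 75.7) and PGR (68.5 and 76.5) were detected on neither array. Nor were FOXA1 (87.04 and 76.9), the pioneer factor of luminal cells, TFF1 (62.3 and 64.02), an oestrogen-induced secreted peptide, ERBB3 or ELF5. GATA3, the main luminal factor, was detected on 1 array only, at 93.1 and 72.1. The simple keratins were present, with KRT19 at 1083 and 793, KRT7 at 684 and 473, KRT8 at 497 and 509.6 and KRT18 at 171 and 191. KRT19 and KRT7 were higher on the array of sample 1, while KRT8 and KRT18 hardly differed. XBP1, a factor of the unfolded protein response that luminal cells also carry, was the brightest member, at 2086 and 2006. ERBB2 was at the median of detected genes (286 and 280.1) through 1 of 3 probes, and the others read 60.6 and 61.1, and 51.8 and 56.9.

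Epithelial junction genes were detected at 14 of 33 (42.4%, against 51.2% of all genes), with a median of 7.07, below that of all detected genes. CDH1, the gene of E-cadherin, had 64.9 and 64.9 and was detected on neither array. The tight junction genes CLDN1, CLDN3, CLDN4 and OCLN were not detected, and nor were MARVELD2 and MARVELD3. ESRP1 (81.8 and 82.2), which directs epithelial splicing, was also below detection. Of the list 2 members were in the brightest 10%: CTNNA1 (alpha-catenin) at 4939 and 4934 and DSG2 (a desmosomal cadherin) at 3361 and 2479. TJP1, the scaffold ZO-1, had 813 and 854. EPCAM, the epithelial surface antigen, was present at 303 and 380.0, with its other probes at 107 and 104, and 235 and 299. CLDN7 was the only one of its family in the list that was detected (186 and 138).

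Keratins as a family were detected at 7 of 19 (36.8%, against 51.2% of all genes). The brightest were KRT80 at 2215 and 2033 and KRT10 at 1932 and 2093, which are best known from stratified epithelia. The epidermal keratins KRT1, KRT2, KRT9, KRT13, KRT14 and KRT16 were detected on neither array. Of the stem-like state markers 8 of 12 were detected (66.7%, against 51.2% of all genes). CD44, the hyaluronan receptor, had 9559 and 9726, with its other probes at 143 and 158, and 1362 and 1236. CD24, which is low in the CD44-high state of breast cancer cells, had 106 and 115, close to the threshold, and its other probe read 68.6 and 68.9. Different probes read the 2 genes, so their levels cannot be set against each other. ALDH1A3, the aldehyde dehydrogenase of this state in breast cancer, had 247 and 359, and ALDH1A1 was detected on neither array.

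**Figure D3:**
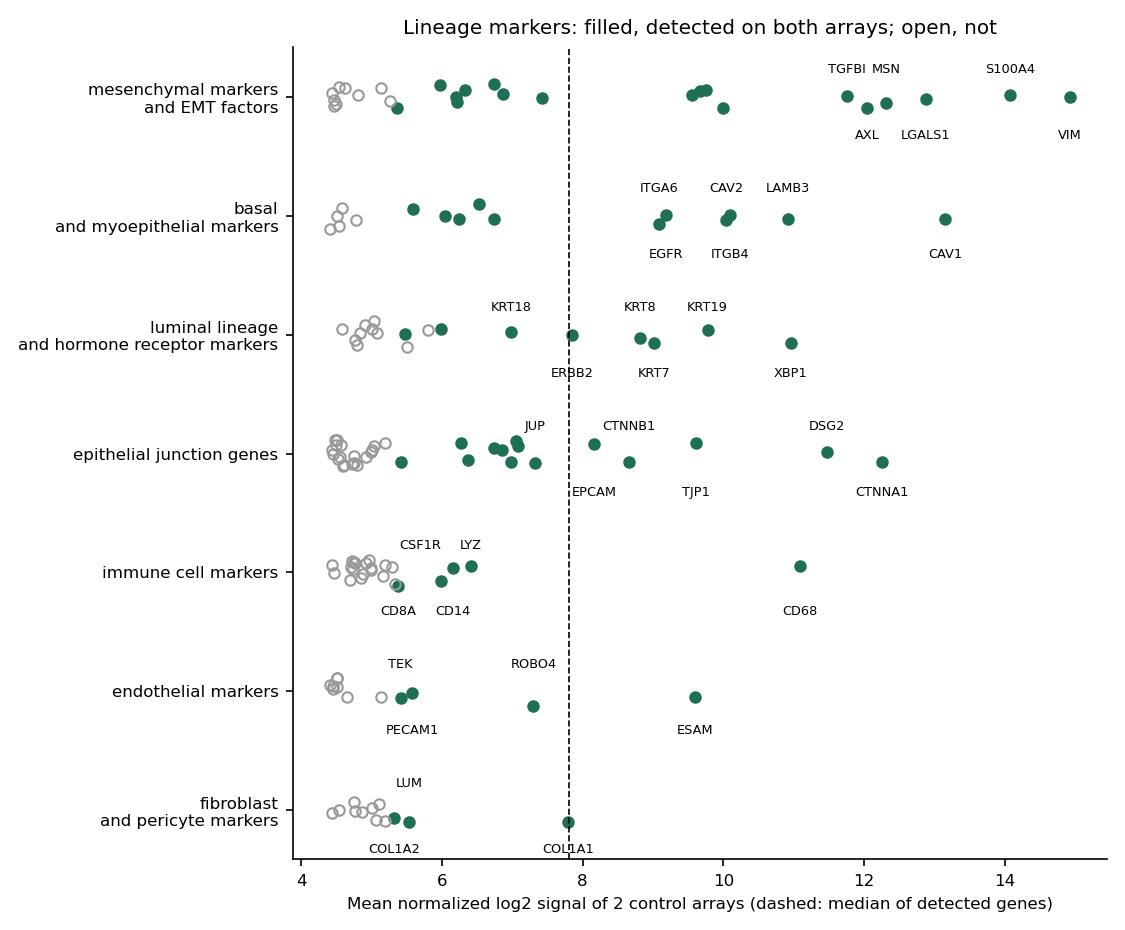
Mean normalized log2 signal over the 2 control arrays (horizontal axis) of every measured member of 7 marker lists, filled where detected on both arrays and open otherwise, with up to 6 of the brightest detected members named. The dashed line is the median of all detected genes, 7.81. The brightest mesenchymal member, VIM, lies at 14.92 and the brightest basal member, CAV1, at 13.15, while the brightest fibroblast member, COL1A1, lies at 7.79.

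Markers of other cell types were mostly below detection, while 51.2% of all genes were detected. Immune markers were detected at 5 of 23 (21.7%), and PTPRC (71.1 and 71.1), the pan-leukocyte gene, and CD3E (55.5 and 57.2), of T cells, were detected on neither array. CD68, a lysosomal protein that is abundant in macrophages but not limited to them, was bright at 2402 and 2063. The other 4 (LYZ, CD14, CSF1R and CD8A) were dimmer, at most 147 for LYZ, and CD14 had 133 and 116. Endothelial markers were detected at 4 of 12 (33.3%), of which ESAM, an adhesion molecule of endothelial junctions, had 1022 and 676. VWF and CDH5, which define that type, were detected on neither array, and PECAM1 was at the edge (97.6 and 104). Fibroblast and pericyte markers were detected at 3 of 12 (25%): COL1A1 at 251 and 303, COL1A2 at 97.9 and 86.6 and LUM at 105 and 92.8. COL3A1, DCN and PDGFRB were detected on neither.

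Most markers of the remaining tissues were near background or not detected, beside a detected share of 51.2% over all genes. Lung epithelium markers were detected at 1 of 13, through ABCA3, a lipid transporter, at 109 and 98.9. SFTPC and NKX2-1 were on neither array and SFTPB on 1. Hepatocyte markers were detected at 2 of 11, SERPINA1 at 255 and 264 and ALB at 139.6 and 126. Muscle markers were detected at 0 of 11. Erythroid markers were detected at 2 of 9, with signals from 97.6 to 107, and neuronal markers at 4 of 13, with signals from 100.4 to 489. Of the detected neuronal members, TUBB3, a tubulin, at 388 and 489 and ENO2, a glycolytic enzyme, at 403 and 363 are also common in cultured tumour cells. The others detected are not named here, and RBFOX3 and SYP were detected on neither array. Pluripotency factors were detected at 1 of 10: KLF4, which epithelia also use, had 1920.1 and 1994, and NANOG, LIN28A and LIN28B were detected on neither.

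Cancer-testis antigens, genes of the germ line that tumours can switch on, were detected at 7 of 22 (31.8%). SPANXB1 had 13928 and 12795, but its other probes read 157 and 151, and 67.8 and 60.7. SPANXA1 had 6856 and 8533, with its other probe at 2849.8 and 3418. The SPANX genes are nearly identical, so the signals cannot be assigned to a member. MAGEB2, of the MAGE family, had 399 and 456, and PAGE5 had 268 and 455. MAGEA1, MAGEA3, MAGEA4 and CTAG1B, widely studied as tumour antigens, were detected on neither array.

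Receptors were described by family, and their shares are to be read beside the 51.2% of all genes that were detected. Receptor tyrosine kinases were detected at 21 of 55 (38.2%), below the share of all genes, with a median of 7.20. AXL, the receptor of GAS6, was the brightest, and MET, the receptor of hepatocyte growth factor, followed at 1247 and 969. EPHA2, an ephrin receptor, had 867 and 801. RYK, a Wnt receptor, had 552 and 583, EPHB4 had 255 and 263, and MERTK, which belongs to the family of AXL, had 223 and 254. EGFR read bright on 1 of its 4 probes, and the others gave 101 and 98.8, and 57.8 and 54.4, and 74.3 and 67.4. ERBB4, INSR (71.6 and 68.3) and IGF1R (53.2 and 49.3), PDGFRA, PDGFRB, FLT1 and KDR were detected on neither array. FGFR1, FGFR2, FGFR3 and FGFR4, named after their values were seen, were not detected either.

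Adhesion receptors included several genes of high signal. Of the integrin subunits 14 of 26 were detected (53.8%), with a median of 9.88 for those detected. ITGB1, the common beta chain, had 14328 and 12748, while 1 of its other 3 probes was detected (2735 and 2236, and 57.9 and 49.2, and 69.2 and 66.01). Its alpha partners included ITGA3, of a laminin receptor, at 4710.2 and 5086 and ITGA2, of a collagen receptor, at 1959 and 1464. ITGAV and ITGB5, which pair as a vitronectin receptor, were detected, ITGAV at 1523 and 1376 and ITGB5 at 1847 and 1868. ITGA5, of the fibronectin receptor, had 898 and 836. ITGA1, ITGA7, ITGA8, ITGB6 and ITGB8 were detected on neither array, and so were the leukocyte chains ITGAD, ITGAL, ITGAM and ITGAX and the platelet chain ITGA2B. The leukocyte chain ITGB2 was detected, at 568 and 448.

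G protein-coupled receptors other than those of chemokines were detected at 25 of 54 (46.3%). F2R, the thrombin receptor, ranked 10 of all genes with 25195 and 25664, but its second probe read only 171 and 215, so its level differs by probe. ADORA2B, an adenosine receptor, had 2813 and 3133 through its only probe. ADGRE5, an adhesion receptor of leukocytes and tumour cells, had 2857 and 2307, and ADGRG1, which binds matrix, had 1637 and 1852. LPAR1, for lysophosphatidic acid, had 599 and 755. Others were below the median: EDNRB, for endothelins, had 204 and 207 and HRH1, for histamine, had 204 and 206. ADRB1, ADRB3, ADORA2A and LPAR3 were detected on neither array.

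Chemokine and chemoattractant receptors were among the least detected lists, at 4 of 25 (16%). CXCR4, the CXCL12 receptor of many metastatic cells, was detected on neither array, at 90.7 and 61.7. On the array of sample 1 it fell just short of the threshold. CCR1, CCR4, CCR7, CXCR1, CXCR2 and CXCR3 were also detected on neither array. CCR6 had 13299.6 and 13444, but 1 probe alone gave this, and the other probes read 93.3 and 89.7, and 69.3 and 71.9. The remaining 3, C5AR1 (98.2 and 103), CMKLR1 (92.6 and 92.7) and CCR8 (93.2 and 90.1), were at the edge of detection. Leaving CCR6 aside, no member of the list exceeded the median of detected genes.

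Cytokine and interferon receptors were detected at 22 of 43 (51.2%), equal to the share of all genes and below the 55.1% of protein-coding genes. IFNGR2, a chain of the interferon-gamma receptor, had 1523 and 1336, and its partner IFNGR1 had 270.3 and 269. IL13RA1, a signalling receptor of IL13, had 1333 and 1249, and IL13RA2, its decoy receptor, had 1328 and 1259.9. IL6ST, the shared chain of the IL6 family, had 847 and 1082, while IL6R itself was detected on neither array (70.2 and 79.6). CSF2RA, a chain of the GM-CSF receptor, had 841 and 791, while IL7R had 418 and 379.6. IFNAR1, of the type I interferon receptor, had 203 and 218. IL1R1, IL1R2, IL1RL1, IL2RG and IL10RA were detected on neither array.

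The TNF receptor superfamily was detected at 11 of 29 (37.9%), with a median of 8.84 for those detected. TNFRSF21, a death-domain receptor, had 5525 and 6943, higher on the array of sample 2. TNFRSF12A, the receptor of TWEAK, had 2674.5 and 2622. TNFRSF10B, a TRAIL receptor, had 1536 and 1370.0, and TNFRSF1A, the main TNF receptor, had 1392 and 1402. LTBR, the lymphotoxin beta receptor, had 916 and 804. FAS (69.2 and 65.1), CD40 and TNFRSF11A, the receptor of RANKL, were detected on neither array.

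Receptors of TGF-beta and BMP ligands were detected at 8 of 14 (57.1%). TGFBR2, which binds TGF-beta and starts signalling, had 4792 and 3862, with its other probes at 3762 and 2999.7, and 107 and 101. BAMBI, a decoy that blocks this signalling, had 1697 and 1843, and the coreceptor TGFBR3 had 728 and 617. ACVR1 and BMPR2, of BMP signalling, were detected, ACVR1 at 847 and 832 and BMPR2 at 306 and 308. TGFBR1 (61.2 and 66.05) and ENG were detected on neither array. Frizzled, Notch and Hedgehog receptors were detected at 10 of 18 (55.6%), and none was in the brightest 10%. FZD6 had 656 and 688, the Wnt coreceptor LRP5 639.6 and 682 and FZD2 449 and 483, while NOTCH1 had 252 and 273 and NOTCH2 216 and 197. NOTCH3, NOTCH4, PTCH1 and SMO were detected on neither array.

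Nuclear receptors were detected at 18 of 40 (45.0%), with a median of 7.07. RXRA, the common partner of many of these receptors, had 1650.3 and 1759.5, and RARA, of retinoic acid, had 1161 and 1064. PPARG, the lipid-sensing receptor of fat cells, had 967 and 855, while its other probes read 57.1 and 58.04, and 58.1 and 67.7, and 351 and 328. RXRB had 592 and 559 and the orphan receptor ESRRA 314 and 299. THRA, THRB, RARB, RARG and PPARA were detected on neither array. NR3C1, the glucocorticoid receptor, named after its value was seen, had 135 and 145, below the median.

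**Figure D4:**
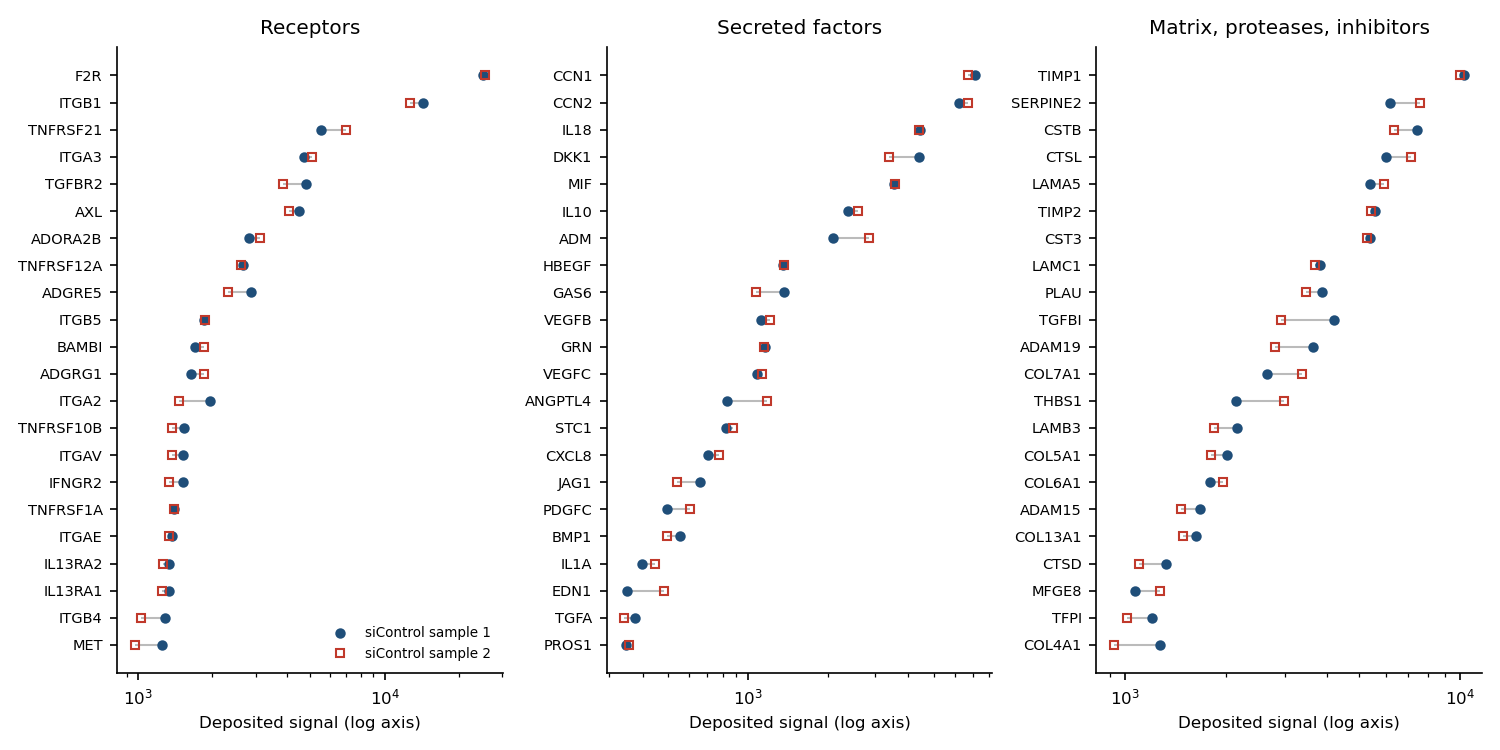
Deposited signal (log axis) of siControl sample 1 (filled) and siControl sample 2 (open) for the 22 brightest detected members of the tyrosine kinase, other G protein-coupled, cytokine, TNF, TGF-beta and integrin receptor lists (chemokine receptors are not drawn), of the growth factor, cytokine and chemokine lists, and of the matrix and protease lists. The samples lie close together for each gene beside the range between genes, the values of F2R and IL10 rest on 1 of their probes, and MIF, HBEGF and VEGFB hardly differ between samples.

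Growth factors and their relatives were detected at 41 of 69 (59.4%), with a median of 7.38. CCN1 and CCN2, matricellular targets of YAP, were detected, CCN1 at 7109.9 and 6692 and CCN2 at 6188 and 6707. DKK1, a Wnt antagonist, had 4386 and 3392, with its second probe at 202 and 176. ADM (adrenomedullin, a peptide hormone of the vessel wall) had 2085 and 2833, higher on the array of sample 2. HBEGF, a ligand of EGFR, had 1344 and 1356. GAS6, the ligand of AXL, had 1359.6 and 1071, with its other probes at 52.5 and 58.9, and 63.98 and 63.96, and 1102 and 886. Ligand and receptor were thus both detected for the AXL and EGFR families.

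The vascular factors VEGFB and VEGFC were detected, VEGFB at 1111 and 1206 and VEGFC at 1074 and 1121, and ANGPTL4, a secreted inhibitor of lipoprotein lipase, had 831 and 1174. VEGFA, named after its value was seen, had 206 and 216. GRN, the progranulin gene, had 1157 and 1149. EGF, FGF2, FGF7, FGF10, HGF, IGF1, IGF2 and ANGPT2 were detected on neither array. The MET and EGFR genes were therefore detected, while HGF and EGF did not pass the detection threshold on either array.

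Interleukins and other cytokines were detected at 15 of 43 (34.9%). IL18, a member of the IL1 family that inflammasomes activate, was the brightest, at 4412 and 4375. MIF, a cytokine that most cells make, had 3533 and 3552. IL10, an anti-inflammatory cytokine, had 2359.5 and 2585 on 1 probe and 68.3 and 56.1 on its other, which was not detected. IL1A had 397 and 446, IL15 had 329 and 301 and IL6, the acute-phase cytokine, had 240.1 and 310.2. IL1RN, IL2, IL3, IL5, IL12A, IL12B and IL17A were detected on neither array. Chemokines were detected at 6 of 36 (16.7%). CXCL8, which draws neutrophils, was the only one above the median, at 708 and 774. CXCL1 had 144 and 141, CCL5 had 142 and 119 and CCL20 98.6 and 127, all below the median of detected genes. CCL2, CCL3, CCL4 and CCL7 were detected on neither array.

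Matrix proteins were detected at 37 of 52 (71.2%), with 8 in the brightest 10%. Laminin chains were prominent, with LAMA5 at 5366 and 5938 and LAMC1 at 3804 and 3680.3. COL7A1, of anchoring fibrils, had 2653 and 3366, and COL5A1 and COL6A1, of fibrils and microfibrils, were detected, COL5A1 at 2012 and 1802 and COL6A1 at 1788 and 1951. THBS1, a matrix glycoprotein that curbs angiogenesis, had 2142 and 2976, higher on the array of sample 2. Detected on neither array were COL3A1, a fibrillar collagen of fibroblasts, VTN, LAMA1, LAMA2, NID1, HSPG2, BGN and VCAN.

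Proteases and their inhibitors were detected at 36 of 54 (66.7%), and inhibitors led. TIMP1, an inhibitor of metalloproteinases, had 10291 and 9969.9, and TIMP2 had 5559.6 and 5419. SERPINE2, an inhibitor of thrombin and plasminogen activators, had 6146 and 7563, and the cystatins CSTB and CST3 were detected, CSTB at 7436 and 6333 and CST3 at 5388 and 5261. Among the enzymes, the lysosomal cathepsin CTSL had 6002 and 7112. PLAU, the urokinase, had 3874 and 3467, and its receptor PLAUR, named after its value was seen, had 926 and 1082. ADAM19 had 3626 and 2788 and ADAM15 1672 and 1464. The gelatinases MMP2 (59.2 and 52.4) and MMP9 (73.95 and 63.1) and the enzymes MMP7, MMP10, MMP11 and MMP12 were detected on neither array, so MMP1, whose level differed between the samples, gave the brightest probe among the matrix metalloproteinases of the list.

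Genes linked in earlier work to lung colonisation by MDA-MB-231 derivatives were detected at 16 of 21 (76.2%, against 51.2% of all genes). The median among those detected was 8.82. FSCN1, the actin-bundling fascin, had 6382 and 6014. KYNU, of the kynurenine pathway, had 2505 and 3015, and ADIRF had 2827 and 2655. IL13RA2, ANGPTL4, SPARC (a matricellular protein, 829.7 and 780.4), MMP1 and PTGS2 were also detected. LY6E had 492 and 503 and EREG, an EGFR ligand, 358 and 327. MMP2, LTBP1, NEDD9 and CXCR4 were detected on neither array, and VCAM1, named after its value was seen, on 1 array (86.9 and 102). Detection in 1 line without its parent line says nothing about a link with the lung. Genes linked to bone and brain colonisation were detected at 10 of 14 (71.4%), but most were dim: past CCN2, HBEGF, PTGS2 and JAG1 (659 and 538), a Notch ligand, the next was SERPINI1 at 165 and 150.4.

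Immune recognition genes were detected at 21 of 37 (56.8%). B2M, the light chain of MHC class I, had 9331 and 9415, and HLA-B had 1499 and 1866 and HLA-E 1017 and 1249. Probes of HLA genes can also read related members. TAPBP and TAP1, which load peptide, were detected, TAPBP at 1602 and 1566 and TAP1 at 599 and 678. NT5E, which makes adenosine from AMP, had 5933 and 5047, and CD59, which blocks complement, had 1035 and 1001. CD274, the gene of PD-L1, was detected on neither array, at 57.6 and 53.7, as was PDCD1LG2. The class II genes HLA-DRB1, HLA-DPA1 and HLA-DPB1 and their activator CIITA were not detected, while the invariant chain CD74 had 551 and 699.

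Interferon-stimulated genes were detected at 29 of 35 (82.9%), with a median of 8.01, close to that of all detected genes. IFITM3 and IFITM2, which block virus entry, were detected, IFITM3 at 2379.8 and 2492 and IFITM2 at 2169.5 and 2369.7. IFI44 had 1155.5 and 1298, HERC5 had 1181 and 1260.4 and ISG15, a ubiquitin-like modifier, 698 and 849. IFIT2 had 597 and 578. MX2, USP18, CXCL10 and CXCL11 were detected on neither array. These cells had received a control siRNA, and untransfected cells were not analysed here.

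Transcription factors were mostly of middle or low signal. SOX4, the gene targeted elsewhere in the series, had 253 and 239 in control cells through its only probe, with a mean log2 signal of 7.59, rank 5542 and just under the median. SOX genes as a family were detected at 6 of 19 (31.6%). SOX9, of progenitor cells in many epithelia, had 481 and 418, and SOX13 had 318 and 322. SOX7 (103 and 91.9), SOX15 (97.00 and 94.5) and SOX5 (96.6 and 88.5) were at the edge of detection. SOX9, SOX13 and SOX4 were thus the only SOX genes that stood clear of the detection threshold on both arrays. SOX1, SOX3, SOX6, SOX8, SOX10, SOX11, SOX12, SOX14, SOX17 and SOX18 were detected on neither array.

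Factors of the AP-1, ETS, TEAD and RUNX families and the YAP coactivators were detected at 27 of 34 (79.4%). JUND had 3607 and 3834 and JUN, of AP-1, 1512 and 1384, and FOSL1 had 797 and 945. ETS1, an ETS factor of invasive cells, had 2989 and 2688, and YAP1 had 1741 and 1819. SPI1 and FLI1, of blood cells, and ELF3, of epithelia, were detected on neither array. HOX genes, which record position along the body axis, were detected at 9 of 29 (31.0%), and the brightest were HOXD1 at 195 and 221, HOXB5 at 192 and 188 and HOXC6 at 187 and 191. Most HOXA genes were not analysed here.

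Growth control genes were detected at 22 of 32 (68.8%). CCND1, cyclin D1, had 9862 and 10357, and BCL2L1, a survival gene, had 6404 and 5840.4. CDK4 had 2225 and 2493 and MYC 1172 and 1009. CDKN1A, the p21 inhibitor, had 1544 and 2608, higher on the array of sample 2. CDKN2A (80.3 and 55.9) and CDKN2B (80.9 and 80.4), neighbouring genes of cell cycle inhibitors, were detected on neither array, and nor were NF2, AKT2 and TERT. The array therefore read both cyclin D1 and its kinase, while CDKN2A, the gene of their inhibitor p16, did not pass detection on either array.

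Among genes with a symbol, the brightest were mostly those of protein synthesis and the cytoskeleton. Probes without a symbol, 46 of the 100 brightest probes, were not part of this order. Of the 40 genes of highest mean signal, 18 encoded ribosomal proteins, 7 belonged to the cytoskeleton list, 2 to the translation factors and 9 to no list, and S100A10, FTL, TXN and F2R belonged to other lists. EEF1A1, the elongation factor that brings tRNA to the ribosome, ranked first with 34322 and 34470.1, although 1 of its 4 probes read far less (779 and 709). Of the ribosomal proteins 67 of 68 were detected, with a median of 13.29, led by RPL41 at 29458 and 26697.5, RPLP2 at 27140.0 and 27160.4 and RPS29 at 24975 and 24701. The second probe of RPL41 read 216 and 209, and with the mean of the detected probes RPL41 ranked 643 in place of 7 and RPS29 242 in place of 13, while RPLP2 has 1 probe. With that mean 27 of the 40 genes stayed among the first 60. RPL6, RPL37A, RPL32, RPS27, RPS16, RPS15, RPS12, RPL18, RPS24, RPLP1, RPL39, RPS19, RPL27A, RPL38 and RPS25 followed within the 40, down to RPS25 at 18966.5 and 16413. Translation factors were detected at 37 of 37, among them TPT1 at 25550.4 and 24075 and EIF4A1, a helicase of initiation, at 17851 and 17342.

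The cytoskeleton list was detected at 45 of 46 (97.8%), with a median of 11.89. TMSB4X and TMSB10, which bind actin monomers, were detected, TMSB4X at 31030.5 and 28712 and TMSB10 at 22252 and 20020.5. ACTB and ACTG1, the cytoplasmic actins, were detected, ACTB at 23033 and 21961 and ACTG1 at 23156.5 and 20337, and PFN1 (profilin) had 21069 and 18937. TUBA1A, an alpha-tubulin with close relatives, had 22279.5 and 20431. S100 proteins and annexins were detected at 19 of 28 (67.9%). S100A10, the partner of annexin A2, had 23863 and 23715, S100A6 had 11162 and 12321 and ANXA2 had 14873 and 14296.5. ANXA2P2, a pseudogene of ANXA2, read 23013.5 and 21016, and its probe may bind the parent transcript. S100A7, S100A8, S100A9 and S100A12, of inflamed skin and myeloid cells, were detected on neither array, as was S100B.

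Metabolic lists were detected almost in full. Glycolysis genes were detected at 19 of 19, with a median of 11.60. LDHA, which makes lactate, had 16379.7 and 18611, ENO1 had 14139 and 12659 and GAPDH 11301 and 11869.9. The glucose transporters SLC2A1 and SLC2A3 were detected, SLC2A1 at 2146 and 2045 and SLC2A3 at 2065 and 2175. Respiratory chain and ATP synthase genes were detected at 50 of 52 (96.2%), led by ATP5F1B, of the ATP synthase, at 14098 and 12699 and COX7C, of cytochrome oxidase, at 10265 and 9531. Only NDUFB4 and NDUFS6 were detected on neither array.

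Iron, redox and detoxification genes were detected at 35 of 38 (92.1%), with a median of 11.14. FTL, the ferritin light chain, was bright on both of its probes, the other reading 31458 and 32879. TXN, the thioredoxin that reduces protein disulphides, had 26849 and 23688. MT2A, a metallothionein, had 13260.2 and 12311, and NQO1, a quinone reductase, had 8764 and 9618. AKR1C3, an aldo-keto reductase, had 11436 and 11215.5, but its family members are so alike that the probe may read several. CYP1B1, a cytochrome P450 that acts on oestrogens and carcinogens, had 8266 and 10675.5. GPX2, AKR1C1 and ALDH1A1 were detected on neither array.

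Transporters of metabolites and ions were detected at 20 of 24 (83.3%). TFRC, the transferrin receptor, had 5189.6 and 4539, and the amino acid carriers SLC38A2 and SLC7A5 were detected, SLC38A2 at 3047 and 2826 and SLC7A5 at 2391 and 2666. ABCB1, the drug efflux pump, was detected on neither array, at 66.7 and 77.1. Chaperones were detected at 32 of 34 (94.1%), with HSP90AA1 at 14507 and 15226.5 and HSPA8 at 10383 and 9975. PDIA3 and CRYAB were detected on neither.

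**Figure D5:**
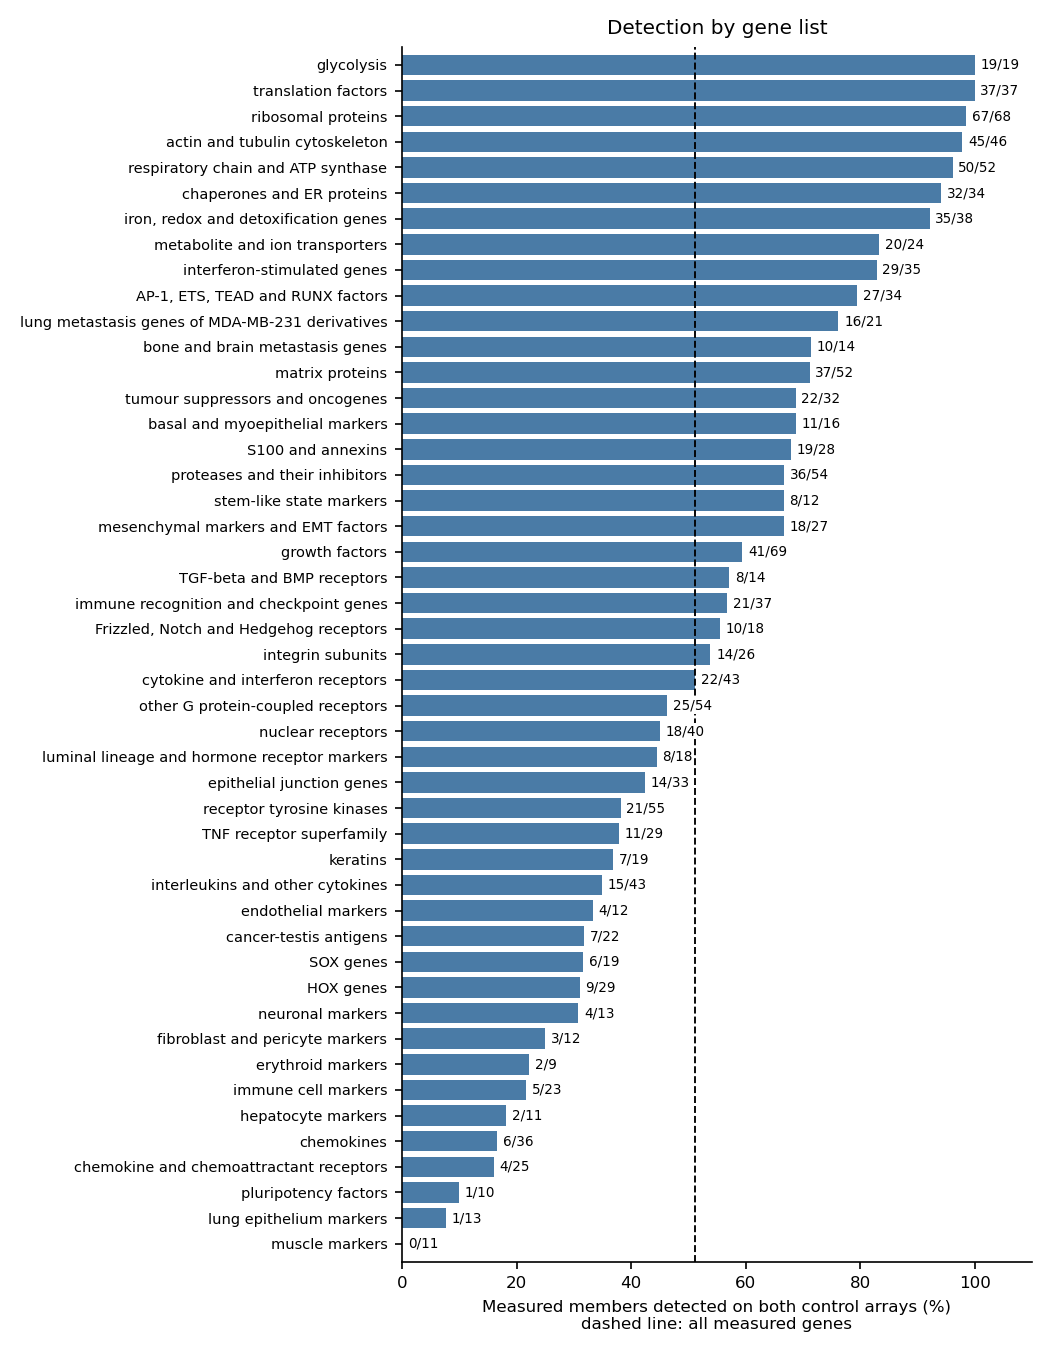
Share of the measured members of each of the 47 gene lists (%) that were detected on both control arrays, with counts beside the bars. The dashed line is the share over all measured genes, 51.2%; glycolysis and translation factors reach all of their members, and muscle markers none.

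Several of the 40 brightest genes owed their rank to 1 of several probes. LAIR1, an inhibitory receptor of leukocytes, ranked 3 with 31828 and 31125, while its other probe read 63.2 and 66.9 and was not detected. CLUAP1, a protein of ciliary transport, ranked 6 with 28545 and 30211, while its other probes read 96.5 and 90.3, and 99.4 and 111, and 142 and 124, and 158 and 148. SLC7A5P2, a pseudogene, had 28510.4 and 27035 on 1 probe, with 77.98 and 76.1, and 73.6 and 66.8 on the others. ITIH5, a hyaluronan-binding protein, had 22117 and 22479.7 on 1 of 5 probes, and the other 4 were not detected. The second probe of TMSB4X read 53.7 and 57.2. With the largest gaps between detected probes were CLUAP1, RPL32, RPS29, RPL37A and CCR6, whose dimmest detected probe was over 8 log2 units under the brightest.

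The same held more widely. Of the 10261 detected genes 4218 had more than 1 listed probe, and in 755 of them the listed probes spread over more than 4 log2 units. At least 1 listed probe was not detected in 2440. Which transcript each such probe reads was not tested, so the high levels of LAIR1, CLUAP1, SLC7A5P2, ITIH5, F2R, CCR6, IL10, RPL41, RPL32 and RPL37A are those of single probes. OAZ1, which curbs polyamine synthesis (19151 and 16976), and ZNF674, a zinc finger gene (18239 and 17423), had only 1 probe each. RPL13AP5 and PPIAL4A, related to the genes RPL13A and PPIA, were detected, RPL13AP5 at 18653 and 17178 and PPIAL4A at 18376 and 17533, and may bind transcripts of those genes.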

How the data were processed

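RNA of MDA-LM2 cells was measured on single-colour Illumina BeadChips, and the 2 siControl arrays of 4 were used. Per the file headers, the deposited signal table gives each probe its intensity together with its detection p-value. The values show no background subtraction, and the authors' export settings are not stated. A deposited matrix, used as an alternative, gives the ratio of each signal to the median of its array. Symbols came from the platform annotation. Signals were background-corrected, quantile-normalized and logged with limma 3.58.1 (neqc, offset 16, negative controls inferred from detection p-values) in R 4.3.3, on the control arrays alone. The step was first run on simulated arrays with a Gaussian background, the form the method assumes. That run cannot show how the step performs on a background of another form. Probes were kept where both detection p-values were under 0.05, and the brightest kept probe stood for its gene. Replicates were placed by their titles. The number of arrays limits the precision. Members were described with both values and no test.

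The 47 gene lists hold 1405 genes, of which 1300 were measured. They and the members were chosen with earlier results of these data known. The genes named are the 40 brightest, the defining markers of each cell type, up to 10 detected and 10 undetected members of each list, SOX4, the 10 that differ most between arrays, those at the threshold, and the 5 with the most unlike probes. Alternatives were a stricter threshold, other normalizations, other rules on probes and leaving out either array.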

Additional observations from a re-analysis of the deposited data

How the results depend on the processing

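The number of genes detected on both arrays, 10261, was 9288 at a detection p-value under 0.01, ranged from 10795 to 11102 when 1 array was left out, and was 7821 when every listed probe had to be detected, a rule added after seeing the data. Of the 100 brightest genes, 100 were shared without background correction, 99 with all 4 arrays normalized together and 100 with the authors' matrix, and leaving out 1 array shared from 95 to 99. The mean of the kept probes shared 66, and the dimmest listed probe, added after seeing the data, shared 50; both average or replace the bright probe by construction. Genes over 2-fold apart between the arrays numbered 5, but 1 without background correction, 3 at the stricter threshold and 1 in the authors' matrix. With every listed probe required, which asks more of each gene, 39% of all genes were detected. Counts fell to 5 of 18 for luminal, 6 of 16 for basal, 8 of 33 for epithelial junction and 1 of 23 for immune lists. They fell to 1 of 12 for fibroblast, 0 of 11 for hepatocyte, 2 of 13 for neuronal and 2 of 22 for cancer-testis lists. Among receptors they fell to 12 of 55 for tyrosine kinases, 9 of 40 for nuclear, 2 of 25 for chemokine and 13 of 54 for other G protein-coupled receptors. Cytokine receptors fell to 14 of 43, TGF-beta receptors to 5 of 14, interleukins to 8 of 43 and growth factors to 23 of 69. At the stricter threshold 46.3% of all genes were detected. There endothelial markers numbered 2 of 12, fibroblast markers 1 of 12, chemokine receptors 1 of 25 and SOX genes 3 of 19. Leaving out 1 array, counts ranged from 4 to 5 for fibroblast markers, from 2 to 3 for lung epithelium markers, from 0 to 1 for muscle markers, from 1 to 4 for pluripotency factors, from 7 to 11 for cancer-testis antigens and from 4 to 8 for chemokine receptors. The other lists stayed within 1.5-fold, 43 of 47 at the stricter threshold. Difference between arrays cannot be computed from 1 array. No paired analysis was possible because only 1 group was described. The signal over background limits the dim genes most.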

Other observations

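Probes without a symbol in the array annotation were not part of the description above, and 3822 of them were detected on both control arrays. They made up 46 of the 100 brightest probes. The brightest, ILMN_3254322, read 30728 and 30167 on the arrays of siControl samples 1 and 2, ILMN_3176403 read 29265 and 31988, and ILMN_3201843 read 28567 and 31088. What these probes read was not tested. Because so many bright probes carry no symbol, the order of named genes covers only part of the brightest signals of the line.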
